A study of Homo sapiens with 24 samples.

Results

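The genes described here were the ZNF zinc finger genes detected in OVCAR-3, an ovarian carcinoma cell line that resists platinum drugs. They were chosen by symbol and by level: a symbol of ZNF followed by a number, 1 probeset per gene, and a mean log2 signal over all 24 arrays of at least 6.54, the median of the genes named on the platform. Of 491 ZNF genes named, 241 met the limit and 250 did not. The share that met it, 49.1%, lay beside 50.0% of the other named genes. All 7442 genes at or above the limit were tested, and every adjusted p given here was adjusted over all of them.

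Most ZNF genes encode proteins with tandem C2H2 fingers that bind DNA, and many carry a KRAB box, a domain that recruits the corepressor TRIM28 and, through it, histone methylation and heterochromatin. Large numbers of them sit in clusters on chromosome 19, where the family grew by tandem duplication, and many silence transposable elements. A minority do other work: some are activators or oncogenes, and others act in ribosome maturation, mitosis or RNA processing. INK128 inhibits both complexes of the kinase mTOR, which drives translation of many mRNAs, and carboplatin damages DNA by crosslinking it.

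Cells received DMSO, carboplatin (1 µM for 5 h), INK128 (0.25 µM) or both, with INK128 given 19 h before carboplatin, and were collected at 24 h. Total RNA was measured on 10 arrays by their labels, and RNA with at least 4 ribosomes, called polysome RNA here, on 14. The study's methods describe 2 sets of independently performed biological replicates, but the labels do not say which arrays belong to which set, so where arrays share a culture p-values measure a spread that may be technical. In these bulk samples fewer cells and less RNA per cell cannot be told apart, and arrays were normalized to each other, with medians over all probesets from 4.97 to 5.13, so that a loss of all polysome RNA alike would not show. The medians of tested genes still ran from 8.19 in combination polysome replicate 3 to 8.51 in DMSO polysome replicate 1.

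For 4 arrays the label is in doubt. The values of carboplatin polysome replicate 1 and carboplatin total replicate 1 equal columns for combination total RNA in the tables published with the study, combination total replicate 1 equals a carboplatin polysome column, and combination total replicate 2 equals a carboplatin total column. They were equal within 0.0001 on 100% of the 527 or 676 probesets shared. No other array exceeded 0.38%. These 4 arrays were left out of the results below unless stated. That left 20: in total RNA 2 for DMSO, 3 for carboplatin and 2 for INK128, and in polysome RNA 3 for DMSO, 4 for carboplatin, 3 for INK128 and 3 for the combination. Of 13 epithelial markers 10 reached the limit, with PAX8 at a mean log2 signal of 12.19, ESR1, at 4.94, did not, and 2 had no symbol in the platform table. The fibroblast genes DCN and LUM, the leukocyte genes CD14 and LYZ and the endothelial genes PECAM1, VWF and KDR were below it, at 2.78 to 6.26. CD68, written among the leukocyte markers for its use in macrophages, was at 9.73. In polysome RNA it rose by 0.87 with INK128 (adjusted p = 0.0346, limma) and by 1.12 with the combination (0.00931), and its part in the ZNF results was not tested.

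Of the 241 genes, 238 were protein coding in the annotation of RefSeq (GRCh38.p14), ZNF667-AS1 and ZNF503-AS2 were long noncoding RNAs, and ZNF271P was a transcribed pseudogene. Chromosome 19 held 103 of them, or 42.7%, beside 6.46% of the other tested genes. Promoters are shown for 4 of the genes that the treatment results turn on, 1 that rose and 3 that fell. Each run is the 100 bases before the start of the gene listed in RefSeq (GRCh38.p14), 5′ to 3′ on the strand of the gene, with capitals marking a match to 1 of 4 short motifs.
ZNF185 (chrX:152914332-152914431, plus strand): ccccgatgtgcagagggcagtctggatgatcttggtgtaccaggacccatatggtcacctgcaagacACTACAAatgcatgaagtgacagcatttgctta
ZNF267 (chr16:31873707-31873806, plus strand): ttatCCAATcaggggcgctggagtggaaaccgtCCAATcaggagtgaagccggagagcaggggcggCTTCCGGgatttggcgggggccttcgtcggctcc
ZNF367 (chr9:96418371-96418470, minus strand): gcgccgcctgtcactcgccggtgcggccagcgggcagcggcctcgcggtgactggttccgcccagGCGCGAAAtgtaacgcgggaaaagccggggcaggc
ZNF410 (chr14:73886759-73886858, plus strand): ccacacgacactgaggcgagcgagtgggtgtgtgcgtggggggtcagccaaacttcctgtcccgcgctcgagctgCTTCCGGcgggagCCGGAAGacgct
The motifs, read on both strands, were CCAAT (the box bound by NF-Y), CCGGAAG (an ETS family core), TTTNGCGC (an E2F family site) and ACTACAA (part of the site of ZNF143). No capitals of different motifs overlapped in these windows. Other genes called with INK128 or the combination are not printed. Of these, ZNF512, ZNF174, ZNF200 and ZNF362 had windows without any of the motifs, and ZNF766, ZNF35 and ZNF286A had windows with a match.

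A promoter was listed for 211 of the 241 genes. Within 250 bases before the start, CCGGAAG was found in 30.3% of these promoters, beside 16.5% of the 6025 promoters of tested genes and 8.82% of all 27305 promoters listed. CCAAT was found in 43.1%, beside 35.6% and 33.0%. ACTACAA was found in 7.11%, beside 3.47% and 2.64%, and TTTNGCGC in 4.74%, beside 2.62% and 1.54%. The median GC content of these ZNF promoters was 62.4%, beside 65.6% for tested genes. The matches describe letters only, and ZNF promoters of 1 cluster share ancestry.

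The level of the genes ran from 6.54 to 11.32 on the log2 scale, with a median of 7.52 and quartiles of 7.01 and 8.31. The median of all tested genes was 8.38. ZNF121 was highest at 11.32, followed by ZNF451 (11.10, a SUMO ligase), ZNF317 (10.96), ZNF207 (10.77, a kinetochore protein that brings BUB3 to chromosomes) and ZNF148 (10.63, a GC-box binding factor). Just inside the limit stood ZNF572 at 6.555, ZNF16 at 6.553 and ZNF14 at 6.541. Just outside were ZNF182 at 6.519, ZNF442 at 6.496 and ZNF517 at 6.487. Arrays of a group differed little, with a median replicate SD of 0.21 for these genes and 0.22 for all tested genes. The median SD was smallest in DMSO total RNA (0.08, n = 2) and INK128 polysome RNA (0.09, n = 3). It was largest in carboplatin total RNA (0.23, n = 3) and INK128 total RNA (0.23, n = 2), with combination polysome RNA close (0.22, n = 3).

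The question of the study was which mRNAs gain or lose ribosomes when mTOR is inhibited, alone or with carboplatin. Polysome RNA also moves with the level of an mRNA, so a rise or fall in it need not be a change in ribosomes per mRNA. In polysome RNA with INK128, 5 of the 241 genes changed. ZNF185, ZNF766 and ZNF512 rose and ZNF267 and ZNF174 fell, by 1.46-fold to 1.99-fold. Taken relative to total RNA, the log2 differences were 0.01, 0.45, 0.40, 0.37 and -0.03 in that order. None of these was called (adjusted p = 0.999, limma). The rises made up 3 of 241, where limma called 4.60% of all tested genes higher, and the falls 2 of 241, where it called 3.59% lower. Their median difference was 0.05, beside -0.02 for all tested genes, and 57.7% of them were above 0, beside 47.2%.

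ZNF185, which encodes a LIM domain protein of the actin cytoskeleton, moved most among the genes called. Its polysome signal was 7.68, 7.68 and 7.58 with DMSO and 8.70, 8.52 and 8.70 with INK128. All INK128 arrays were above all DMSO arrays. The log2 difference was 0.99 ± 0.267 (SE), and the adjusted p by limma was 0.0367. Total RNA of ZNF185 stood at 7.39 and 7.21 with DMSO and at 8.56 and 7.99 with INK128. That difference, 0.98 ± 0.327, was of like size but was not called, at an adjusted p of 0.203 by limma.

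ZNF766, a KRAB zinc finger gene on chromosome 19, was at 7.67, 7.84 and 7.76 in polysome RNA with DMSO and at 8.50, 8.41 and 8.50 with INK128. The groups did not overlap, and it rose by 0.71 ± 0.139 (adjusted p = 0.00773, limma). ZNF512 was at 8.29, 8.44 and 8.44 with DMSO and at 8.91, 9.11 and 9.20 with INK128. Its groups did not overlap either, and it rose by 0.68 ± 0.143 (adjusted p = 0.0114, limma).

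Among the genes that fell, ZNF267 was at 6.92, 6.57 and 6.64 with DMSO and at 6.01, 5.79 and 6.18 with INK128, below every DMSO array. It fell by 0.72 on the log2 scale (SE 0.177, adjusted p = 0.0270, limma). In total RNA it was at 7.22 and 7.23 with DMSO and at 6.23 and 6.07 with INK128, a difference of -1.08 ± 0.279 that was not called (adjusted p = 0.119, limma). ZNF174, a SCAN domain repressor, was at 8.63, 8.04 and 8.36 with DMSO and at 7.72, 7.94 and 7.75 with INK128. The highest INK128 array was 0.1 below the lowest DMSO array, and ZNF174 fell by 0.54 (SE 0.155, adjusted p = 0.0455, limma).

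These calls were near the threshold. The labels number DMSO and INK128 polysome arrays alike but do not say that same-numbered arrays share a culture. With the replicate number as a block, 8 genes were called: the same 5 and, lower, ZNF286A (adjusted p = 0.0296, limma), ZNF35 (0.0401) and ZNF367 (0.0452). Leaving out 1 array gave 1 to 15 calls: 15 without DMSO polysome replicate 2, 2 without DMSO polysome replicate 3 or INK128 polysome replicate 1, and 1 without INK128 polysome replicate 2 or replicate 3. ZNF766 passed in 6 of these 6 fits, ZNF512 in 4, and ZNF267, ZNF185 and ZNF174 in 1 each. Centring each array on the median of tested genes gave 8 higher and 3 lower, beside 456 and 237 of the 7442 tested genes.

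**Figure D1:**
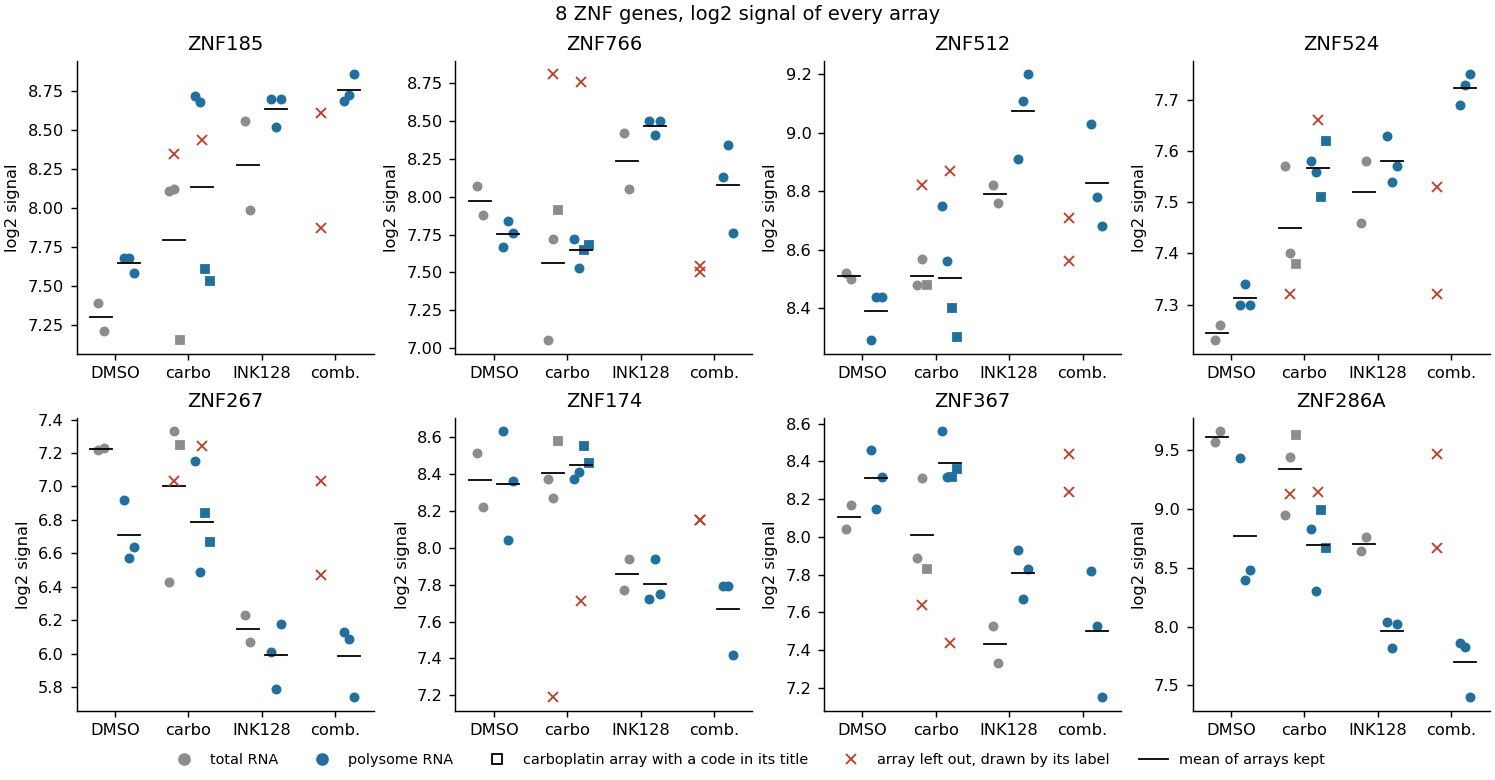
The log2 signal (y axis, log2 units, not from 0) of 8 ZNF genes on every array, by treatment (x axis) and RNA fraction, with black lines for means of the arrays kept. Polysome signals of ZNF185 with INK128 (8.52 to 8.70) and the combination (8.69 to 8.86) lie above DMSO (7.58 to 7.68), and the coded carboplatin arrays of ZNF185 lie with DMSO.

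In polysome RNA with the combination, 11 of the 241 genes changed, 3 higher and 8 lower. ZNF185, ZNF362 and ZNF524 rose. ZNF286A, ZNF367, ZNF35, ZNF267, ZNF174, ZNF410, ZNF200 and ZNF503-AS2 fell. Limma called 4.56% of all tested genes higher and 8.56% lower in this comparison. The median difference was -0.03, beside -0.08 for all tested genes. INK128 and the combination were compared with the same 3 DMSO arrays.

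ZNF185 was at 8.69, 8.73 and 8.86 on the combination arrays, all above DMSO, a rise of 1.11 ± 0.267 (2.16-fold, adjusted p = 0.0187, limma). ZNF524, which binds telomeric repeats, was at 7.30, 7.34 and 7.30 with DMSO and at 7.69, 7.73 and 7.75 with the combination. Its change was small, 0.41 ± 0.099, but its arrays were tight (adjusted p = 0.0190, limma). ZNF362 rose by 0.66 ± 0.193 (adjusted p = 0.0369, limma), from 8.37, 7.72 and 7.69 to 8.38, 8.41 and 8.98. The highest DMSO array of ZNF362 was within 0.01 of its lowest combination array.

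The fall was largest for ZNF286A among the genes called. It was at 9.43, 8.40 and 8.48 with DMSO and at 7.86, 7.83 and 7.40 with the combination, a difference of -1.07 ± 0.245 (2.10-fold lower, adjusted p = 0.0154, limma). DMSO polysome replicate 1 stood apart from the other DMSO arrays in this gene. ZNF367, whose promoter window held the E2F letters, was at 8.46, 8.15 and 8.32 with DMSO and at 7.82, 7.53 and 7.15 with the combination. It fell by 0.81 (SE 0.161, adjusted p = 0.00832, limma), the smallest p among the 241 genes in this comparison. ZNF174 fell by 0.68 (adjusted p = 0.0148), ZNF267 by 0.72 (0.0201) and ZNF35 by 0.73 (0.0166), all by limma.

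ZNF410, an activator whose known target is the nucleosome remodeller gene CHD4, was at 8.57, 7.86 and 8.42 with DMSO and at 7.78, 7.72 and 7.42 with the combination. It fell by 0.65 (SE 0.197, adjusted p = 0.0449, limma), and the groups did not overlap. ZNF200 fell by 0.48 (adjusted p = 0.0315, limma). The antisense RNA ZNF503-AS2 fell by 0.42 (adjusted p = 0.0285, limma), at a low level of 6.90, 6.81 and 6.87 with DMSO against 6.52, 6.52 and 6.29.

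The count of 11 rested on several arrays. Without 1 array it ran from 2 to 22, with 22 without combination replicate 1 or DMSO replicate 2, 5 without combination replicate 3 and 2 without DMSO replicate 3. ZNF367 passed in 6 of 6 of these fits, and ZNF174, ZNF286A and ZNF35 in 5. ZNF185 and ZNF524 passed in 4, ZNF267, ZNF200 and ZNF503-AS2 in 3, and ZNF410 and ZNF362 in 2, with adjusted p-values of up to 0.147 for the last pair. A fit on the DMSO and combination arrays alone called 1 gene, higher. Centring each array on the median of tested genes turned the split from 3 higher and 8 lower into 11 higher and 5 lower, beside 623 and 412 of all tested genes, and moved the median of all tested genes from -0.08 to 0.04.

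**Figure D2:**
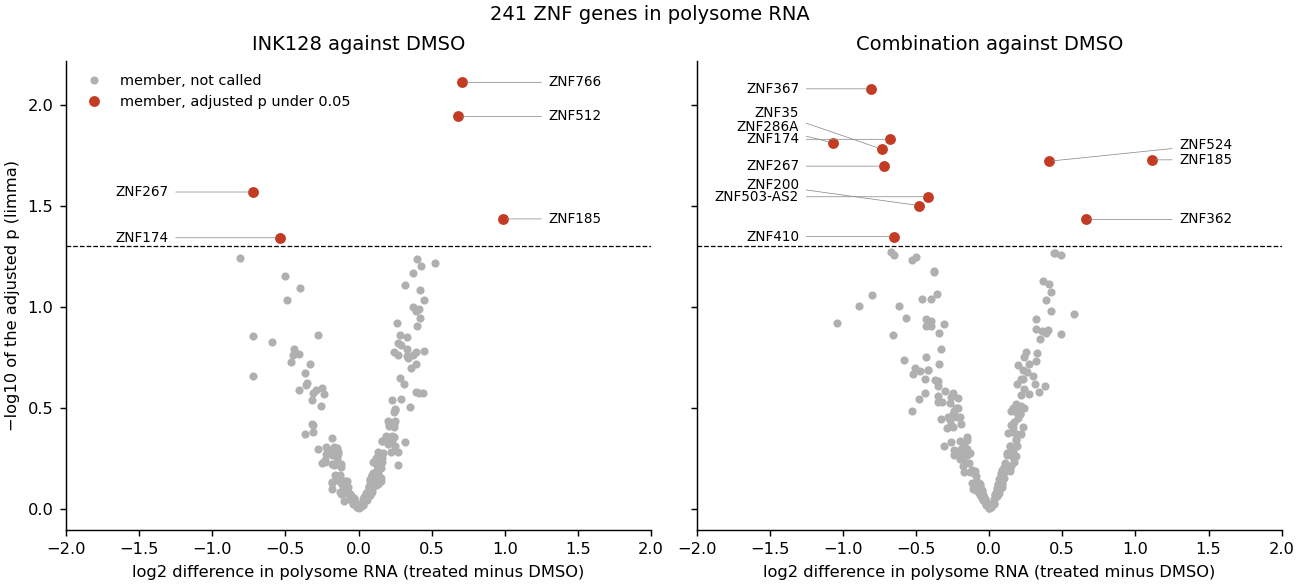
Each point is 1 of the 241 ZNF genes, with the log2 difference in polysome RNA from DMSO on the x axis and -log10 of the limma adjusted p on the y axis. The dashed line marks an adjusted p of 0.05, which 5 genes passed with INK128 and 11 with the combination.

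Chromosome 19 genes and the others were set side by side. Of the 103 on chromosome 19, 1 rose and 0 fell with the combination, and of the 138 elsewhere, 2 rose and 8 fell. With INK128 it was 1 and 0 on chromosome 19 and 2 and 2 elsewhere, where 4.60% of all tested genes rose and 3.59% fell. The medians with the combination, -0.02 and -0.04, were close, and the difference between these sets was not tested. Of 23 ZFP, ZSCAN and ZKSCAN genes 1 rose and 0 fell with the combination, and of 38 ZBTB genes, whose products join fingers to a BTB domain, 2 rose and 2 fell, where 4.56% of all tested genes rose and 8.56% fell.

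Against carboplatin, the combination raised 5 of the 241 genes and lowered 18, where limma called 5.64% of all tested genes higher and 12.1% lower. The rises were ZNF581 (0.83 ± 0.219), ZNF362 (0.62), ZNF572 (0.52), ZNF766 (0.43) and ZNF627 (0.40). The falls of largest size were ZNF286A (from a mean of 8.70 to 7.70), then ZNF101 (-0.94), ZNF263 (-0.91), ZNF367 (-0.89), ZNF267 (-0.80), ZNF174 (-0.78), ZNF35 (-0.78) and ZNF202 (-0.73). ZNF263 and ZNF202 encode proteins with a SCAN domain, and ZNF202 represses genes of lipid metabolism. Adjusted p-values of these 8 by limma ran from 0.00238 for ZNF367 to 0.0361 for ZNF263.

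ZNF267 was at 7.15, 6.49, 6.84 and 6.67 with carboplatin and at 6.13, 6.09 and 5.74 with the combination. ZNF101 was at 7.42, 7.36, 7.47 and 7.07 with carboplatin and at 6.71, 6.71 and 5.76 with the combination, where replicate 3 was well below the others. ZNF263 showed the same low array, at 7.05, 6.57 and 5.59. Combination polysome replicate 3 was the lowest of the 3 in each of these genes. Without it 13 genes were called, and without other single arrays 8 to 34, with 8 without carboplatin replicate 2, 13 without carboplatin replicate 3 and 14 without combination replicate 2 or 1 of the coded carboplatin arrays. With the replicate block 5 were higher and 36 lower, and with centred arrays 19 were higher and 10 lower, beside 795 and 519 of all tested genes, while centring moved the median of all tested genes from -0.09 to 0.05. Without the coded carboplatin arrays 2 genes were higher and 25 lower, and 11 of the 23 calls were among them. ZNF286A (-0.87, adjusted p = 0.0601, limma), ZNF263, ZNF362, ZNF572, ZNF766 and ZNF627 were among the 12 lost, and ZNF581 was the only rise that passed in both fits. The share of all tested genes called with the block or without the coded arrays is not given here, so those counts describe ZNF genes alone.

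Carboplatin alone changed 0 of the 241 genes in polysome RNA by limma, where it called 0% of all tested genes in either direction. At an unadjusted p under 0.05 there were 7 of these genes and 175 of all tested. The smallest p-values were those of ZNF860 (0.47 ± 0.17), ZNF524 (0.25 ± 0.093), ZNF749 (0.42), ZNF618 (-0.36) and ZNF142 (0.41), all with an adjusted p of 1.00. The 4 carboplatin polysome arrays were of 2 kinds, replicates 2 and 3 and 2 arrays whose titles carry a code. ZNF185 was at 8.72 and 8.68 on the numbered arrays and at 7.61 and 7.53 on the coded ones, the latter within 0.1 of DMSO. Over the 4 arrays its difference from DMSO was 0.49, with a 95% interval of -0.05 to 1.02.

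When the coded arrays were left out, 9 genes were higher with carboplatin and 1 was lower, and 179 and 55 of all tested genes. The 9 included ZNF185 (1.05), ZNF335 (0.80), ZNF142 (0.77), ZNF609 (0.75), ZNF749 (0.73), ZNF827 (0.72), ZNF592 (0.70) and ZNF598 (0.61, a ubiquitin ligase of collided ribosomes), and ZNF618 was lower (-0.63). What the code stands for is not given, and the part in these values of whatever it marks was not tested.

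The combination against INK128 alone called 0 of the 241 genes by limma and 0% of all tested genes, higher or lower, with 6 and 207 at an unadjusted p under 0.05. ZNF766 had the smallest p, at a difference of -0.39 with a 95% interval of -0.69 to -0.09 (adjusted p = 0.916, limma). It stood at 8.50, 8.41 and 8.50 with INK128 and at 8.13, 8.34 and 7.76 with the combination. ZNF557 (-0.45), ZNF317 (-0.32), ZNF304 (-0.52) and ZNF641 (-0.56) followed. For ZNF185 the difference was 0.12 (-0.45 to 0.69) and for ZNF267 it was -0.01 (-0.39 to 0.37), so that differences of moderate size in either direction stayed within the intervals.

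**Figure D3:**
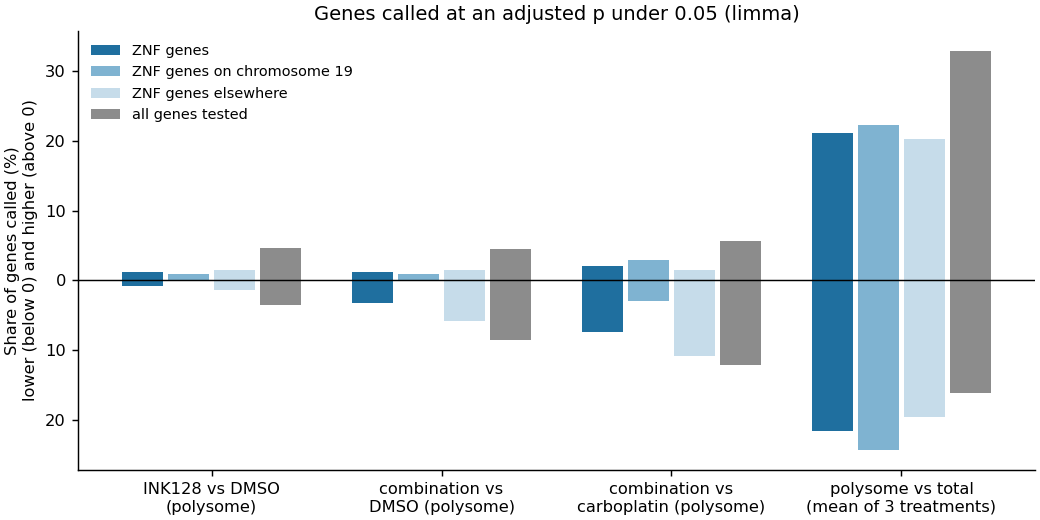
The share of genes called (y axis, percent, higher above 0 and lower below 0) by limma in 4 comparisons (x axis), for the ZNF genes, those on chromosome 19, those elsewhere and all tested genes. With the combination against DMSO 3 and 8 of 241 ZNF genes stand beside 4.56% and 8.56% of all tested genes, and in polysome against total RNA the higher share is 21.2% beside 32.9%.

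In total RNA, INK128 changed 0 of the 241 genes by limma, which called 0.107% of all tested genes higher and 0.0537% lower. With 2 arrays a group, 20 ZNF genes and 1166 of all tested genes had an unadjusted p under 0.05. The 5 with the smallest p were ZNF277 (0.76 ± 0.179), ZNF326 (-0.78 ± 0.19, a factor in transcript elongation and splicing), ZNF358 (0.85), ZNF286A (-0.91) and ZNF267 (-1.08), with adjusted p-values from 0.105 to 0.119. ZNF277 was at 8.61 and 8.73 with DMSO and at 9.43 and 9.43 with INK128. Carboplatin changed 0 of the 241 genes by limma and 0% of all tested genes in either direction, with 6 and 198 at an unadjusted p under 0.05. The smallest p-values belonged to ZNF618 (-0.64), ZNF558 (-0.46), ZNF555 (-0.54), ZNF189 (-0.47) and ZNF470 (-0.40), at an adjusted p of 0.993.

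Polysome RNA was then set against total RNA, as a mean over DMSO, carboplatin and INK128. Group means were compared, and the pairing of fractions by lysate was not used. Of the ZNF genes 51 were higher on polysomes and 52 lower. Limma called 32.9% of all tested genes higher and 16.2% lower, beside 21.2% and 21.6% of the ZNF genes. Their median difference was 0.01, with quartiles of -0.22 and 0.25, beside 0.10 (-0.14 and 0.33) for all tested genes. With arrays centred on the median of tested genes the split became 34 higher and 70 lower, beside 1795 and 1597 of all tested genes.

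ZNF282, a repressor first known from the HTLV-1 promoter, was highest on polysomes relative to total RNA. It was at 7.83, 8.53 and 8.35 in DMSO polysome RNA and at 7.42 and 7.47 in DMSO total RNA. With INK128 it was at 8.59, 8.62 and 8.66 in polysome RNA and at 8.15 and 7.61 in total RNA. The polysome arrays were above the total RNA arrays within each treatment, and the mean difference was 0.81 ± 0.107 (adjusted p = 2.92e-05, limma). ZNF557 (0.80), ZNF460 (0.78), ZNF324 (0.74), ZNF500 (0.63), ZNF304 (0.58), ZNF319 (0.57) and ZNF408 (0.56, a gene of inherited retinal disease) followed, with adjusted p-values up to 0.00654.

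The RNAs that were lowest on polysomes do not encode a ZNF protein. The antisense RNA ZNF667-AS1 was at 8.24, 7.12 and 7.25 in DMSO polysome RNA and at 8.92 and 8.87 in DMSO total RNA. With INK128 it was at 7.15, 7.44 and 7.34 in polysome RNA and at 8.80 and 9.20 in total RNA. It fell by 1.46 on the log2 scale (2.76-fold, SE 0.131, adjusted p = 1.89e-06, limma). The pseudogene ZNF271P fell by 0.98 (1.97-fold, SE 0.142, adjusted p = 5.27e-05, limma). ZNF503-AS2, the other noncoding RNA, differed by 0.06 ± 0.068 and was not called.

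Protein coding genes followed at the low end. ZNF718 (-0.87), ZNF138 (-0.87), ZNF385B (-0.80), ZNF146 (-0.75, a protein of fingers alone that is overexpressed in carcinomas), ZNF286A (-0.74) and ZNF248 (-0.73) were lower on polysomes, with adjusted p-values by limma from 0.000166 to 0.00120. ZNF286A was at 9.57 and 9.66 in DMSO total RNA and at 9.43, 8.40 and 8.48 on DMSO polysomes. DMSO polysome replicate 1 was near the total RNA level in this gene, as it was for ZNF667-AS1 among the polysome arrays. Without that array 53 ZNF genes were higher on polysomes among 116 called.

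**Figure D4:**
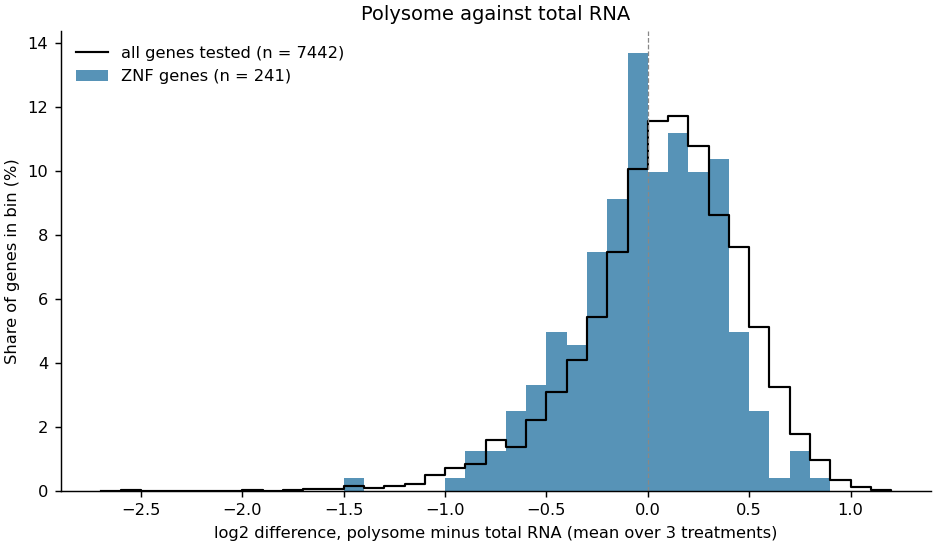
Share of genes (y axis, percent) by log2 difference between polysome and total RNA (x axis, bins of 0.1), averaged over DMSO, carboplatin and INK128, for 241 ZNF genes (bars) and 7442 tested genes (line). The bars reach from -1.46 to 0.81 around a median of 0.01, and the line has its median at 0.10.

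By role, of 3 genes of ribosome maturation and surveillance 2 were higher on polysomes, where 32.9% of all tested genes were. ZNF598 (0.47 ± 0.112) and ZNF622 (0.49 ± 0.185, a maturation factor of the large subunit) passed by limma, with adjusted p-values of 0.00225 and 0.0332, and ZNF593, which acts in the same maturation, was at 0.12 and was not called. Without 1 array ZNF598 passed in 17 of 17 fits and ZNF622 in 8 of 17, with adjusted p-values of up to 0.133. Among 12 measured activators and oncogenes 1 was higher and 2 were lower: ZNF687 at 0.53, and ZNF532 at -0.48 and ZNF131 at -0.50. ZNF687, ZNF592 and ZNF532 encode partners of the chromatin reader ZMYND8, and ZNF592 was at -0.11. The oncogene ZNF217, the activator ZNF143 and the CHD4 activator ZNF410 were not called, at 0.06, 0.32 and 0.28.

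Of 5 genes of RNA processing, ZNF318 (0.44) was higher and ZNF638 (-0.31) was lower, and ZNF326, ZNF346 and ZNF385A were not called. Of 4 in mitosis or genome maintenance, ZNF207 (0.23) was higher and ZNF830 (-0.25) was lower. A list written for repressors of transposons, imprinted genes or ZNF genes had 5 genes tested, among them ZNF202, named above for lipid metabolism. Only ZNF274, which brings the methyltransferase SETDB1 to the ends of ZNF genes, passed by limma (0.23, adjusted p = 0.0227). Limma called 32.9% of all tested genes higher and 16.2% lower. The other 5 written in this list, among them ZNF91 (3.66) and ZNF93 (4.67), were below the level limit. With the combination against DMSO in polysome RNA, ZNF410 was the only gene of these 5 role lists that was called. Limma called 4.56% of all tested genes higher and 8.56% lower in that comparison. When single arrays were left out, ZNF410 passed in 2 of 6 fits, with adjusted p-values by limma of up to 0.147.

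KRAB corepressor genes and heterochromatin genes in general were described from 1 list of 31 genes, of which 25 were tested. SETDB1 was in the list but had no symbol in the platform table. On polysomes against total RNA 13 were higher and 3 were lower, with a median of 0.18, where 32.9% and 16.2% of all tested genes were called. With the combination against DMSO in polysome RNA 0 rose and 4 fell, with a median of -0.11, where 4.56% and 8.56% of all tested genes were called. The 4 were the histone methyltransferases SUV39H2 (-1.13) and SUV39H1 (-0.65), the DNA methyltransferase DNMT3B (-0.87) and the heterochromatin protein gene CBX1 (-0.78). TRIM28 itself, at a level of 10.99, differed by -0.18 ± 0.187 and was not called (adjusted p = 0.517, limma). With INK128 alone 0 rose and 2 fell, DNMT3B (-0.80) and SUV39H2 (-0.96), where 4.60% and 3.59% were called.

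On chromosome 19, 23 ZNF genes were higher on polysomes and 25 were lower, with a median of -0.02. Of the ZNF genes elsewhere, 28 were higher and 27 lower, with a median of 0.05. The other 465 tested genes of chromosome 19 had 214 higher and 41 lower, with a median of 0.23, so the median of the ZNF genes lay lower, a difference that was not tested. ZNF genes next to each other in the order of named genes formed 35 pairs, of which 22 had differences of the same sign. The median gap within a pair was 0.30, and the Pearson correlation across pairs was 0.27. Among runs of 3 to 5 such genes, ZNF773, ZNF549 and ZNF416 had the highest median, 0.43, and all 3 were higher. The run ZNF420, ZNF585A, ZNF585B and ZNF383 had the lowest median, -0.37, with 0 higher and 2 lower. Medians of the other runs lay from -0.25 to 0.29. Of all tested genes 32.9% were called higher and 16.2% lower.

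Genes that share a number and differ by a letter were set side by side. Similar copies can share probes, and how alike these genes are was not examined. ZNF780A and ZNF780B were both lower on polysomes (-0.38 and -0.61). ZNF585A was lower (-0.67), while ZNF585B, at a level of 6.73, was at -0.22 and was not called. ZNF280B (-0.65) and ZNF280D (-0.54) were lower and ZNF280C (-0.17) was not called. ZNF385B (-0.80) was lower and ZNF385A (-0.06) was not called. Cross-hybridization was not tested.

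Within each treatment fewer genes passed. In DMSO 2 of the 241 were higher on polysomes and 6 lower, where limma called 2.35% and 2.03% of all tested genes. In carboplatin 28 were higher and 19 lower (20.1% and 6.13% of all tested genes), and in INK128 14 were higher and 13 lower (10.3% and 5.91%). These counts depended on single arrays. In DMSO 38 were called without polysome replicate 1 and 0 without any other 1 of its arrays. In INK128 46 were called without total replicate 1, 6 without polysome replicate 1, 1 without polysome replicate 2 or replicate 3 and 0 without total replicate 2. In carboplatin the 47 called became 21 to 43 without 1 array, with 21 without total replicate 2, 27 without polysome replicate 3 and 25 without the coded total array or 1 of the coded polysome arrays.

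A score of RNA fraction was taken on each array as the mean signal of the 51 genes higher on polysomes minus the mean of the 52 lower. On the 20 arrays that chose the genes it ran from -0.22 to 0.42 in polysome RNA and from -0.96 to -0.31 in total RNA, which is a description. The 4 arrays left out did not choose them. Carboplatin polysome replicate 1 scored -0.81 and combination total replicate 1 scored 0.28, each within the range of the other fraction. Carboplatin total replicate 1 (-0.60) and combination total replicate 2 (-0.67) scored within the range of total RNA. DMSO polysome replicate 1, at -0.22, was the lowest polysome array, and INK128 total replicate 1, at -0.31, the highest total RNA array.

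**Figure D5:**
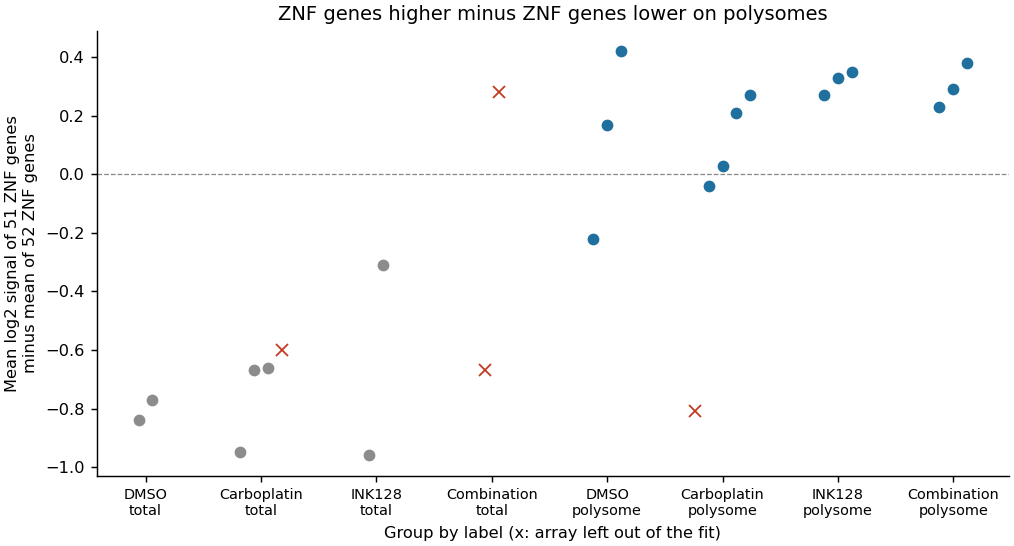
Fraction score (y axis, log2 units) of each array by its labelled group (x axis), total RNA in grey, polysome RNA in blue and arrays left out as red crosses. The cross labelled carboplatin polysome lies at -0.81 with the total RNA arrays, and 1 cross labelled combination total lies at 0.28 with the polysome arrays.

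Translation efficiency was taken as the polysome minus total difference in treated cells minus that in DMSO. The study's methods took total RNA from the lysates used for polysomes and matched the fractions. Group means were compared here without that pairing, so the calls and intervals below do not use it. It was changed for 0 of the 241 genes by limma with INK128 and 0 with carboplatin, and for 0% of all tested genes, higher or lower, in both. At an unadjusted p under 0.05 there were 3 ZNF genes with INK128 (94 of all tested) and 1 with carboplatin (59). With INK128 the smallest p-values were those of ZNF791 (0.63 ± 0.224), ZNF770 (0.54), ZNF284 (0.62), ZNF277 (-0.50) and ZNF549 (0.46), at an adjusted p of 0.999. With carboplatin they were those of ZNF235 (0.88), ZNF791 (0.41), ZNF558 (0.56), ZNF16 (0.43) and ZNF318 (0.42), at an adjusted p of 1.00. The median half-width of a 95% interval was 0.57 with INK128, and estimates larger than that median went uncalled. ZNF791, at 0.63, had an interval of 0.16 to 1.10. ZNF581, at -0.81, had a wider interval of -1.71 to 0.09 and also an adjusted p of 0.999 by limma. For ZNF185 the estimate was 0.01 with an interval of -0.94 to 0.97, and for ZNF267 it was 0.37 with -0.32 to 1.06.

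Total RNA of the combination could be given only with the conditions of the published tables, in which carboplatin polysome replicate 1 and carboplatin total replicate 1 are its 2 arrays. ZNF277 then rose by 0.94 ± 0.151 (1.92-fold, adjusted p = 0.0200, limma), from 8.61 and 8.73 with DMSO to 9.55 and 9.68. It was the only 1 of the 241 called, where limma called 0.255% of all tested genes higher and 0.161% lower. The median of the ZNF genes was 0.11, beside -0.01 for all tested genes. By the labels the ZNF277 difference was -0.14, and without any 1 of the 4 arrays of this comparison 0 genes were called.

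With the same conditions, 14 ZNF genes were higher on polysomes than in total RNA of the combination and 66 were lower, beside 15.3% and 16.7% of all tested genes. The shares of the ZNF genes were 5.81% and 27.4%. The median of the ZNF genes was -0.20, beside 0.01, and -0.09 beside 0.06 without combination polysome replicate 3. Of the 80 called, 41 and 40 were called without the array labelled carboplatin polysome replicate 1 and carboplatin total replicate 1. The lower genes were 33 of 103 on chromosome 19 and 33 of 138 elsewhere. Translation efficiency of the combination called 0 of the 241 genes by limma and 0% of all tested genes in either direction, with 5 and 493 at an unadjusted p under 0.05. ZNF277 had the smallest p, at -0.94 (-1.40 to -0.47, adjusted p = 0.591, limma), then ZNF764 (-0.79), ZNF561 (-0.67), ZNF281 (0.75) and ZNF780A (-0.52). The median of the ZNF genes was -0.16, beside -0.08 for all tested genes.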

How the data were processed

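The authors measured RNA on 24 Affymetrix Human Gene 2.0 ST arrays and deposited log2 signals of 53617 probesets, made by RMA in Expression Console 1.4.1. The genome build was not given in the sources used here. Array medians ran from 4.97 to 5.13. The number of arrays limits the precision.

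A symbol was given for 16098 probesets. The probeset with the highest mean stood for a gene, and 9 ZNF genes had several. Polysome and total RNA were fitted separately over treatments, and fractions together, with limma 3.58.1 in R 4.3.3 and Benjamini-Hochberg adjustment at 0.05. Promoters came from RefSeq (GRCh38.p14), the first start listed per gene. Genes, lists and tests were chosen with earlier results of these data known. Named genes were up to 8 higher and 8 lower per comparison by size, or the 5 with the smallest p where fewer than 3 passed, the 5 highest levels, those beside the limit and role lists. Those named without coded arrays or under the block were chosen after their values were seen. Protein sequences were not analysed here. The fits were tested on simulated data. Deviations from group means of same-numbered DMSO and INK128 polysome arrays had correlations of 0.363, 0.296 and 0.163. Those of differently numbered arrays ran from -0.391 to 0.178. Deviations within a group add up to 0, which limits what these values show, and a shared culture was not tested.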

Additional observations from a re-analysis of the deposited data

Results flagged for a closer look

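Among 67 genes named in the comparisons, 3 had 1 of the 4 carboplatin polysome arrays far from the others. The gap to the nearest array was compared with the range by Dixon's criterion, which chance passes in about 1 of 20 groups. For ZNF35 a coded array was low, at 7.44 beside 7.74, 7.75 and 7.79. For ZNF500 the same array was high, at 7.47 beside 7.17, 7.19 and 7.21. For ZNF791 replicate 2 was high, at 8.76 beside 8.20, 8.26 and 8.28.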

How the results depend on the processing

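The counts of ZNF genes called moved with the arrays used. Counts in this paragraph are of ZNF genes alone, without the share of all tested genes called under the same setting. With INK128 against DMSO in polysome RNA, 5 became 2 with all arrays by their labels, 9 with the conditions of the published tables, 8 with quantile normalization, 11 with centred arrays and 8 with the replicate block, and 1 to 15 without 1 array. With the combination against DMSO, 11 became 5 by the labels, 18 with the published conditions, 18 with the replicate block and 1 with only the groups compared, and 2 to 22 without 1 array. Carboplatin against DMSO went from 0 to 10 without the coded arrays. The combination against carboplatin went from 23 to 35 with the published conditions, 12 with only the groups compared and 41 with the replicate block, and 8 to 34 without 1 array. In total RNA with INK128, 0 became 5 with the published conditions and 0 to 1 without 1 array. In total RNA with the combination, 1 became 0 by the labels, 2 with centred arrays, 26 with only the groups compared, 2 without the coded arrays and 0 with the replicate block, and 0 without any 1 array. By the labels ZNF277 reversed to -0.14 in total RNA and to 0.15 in translation efficiency with the combination, and ZNF780A to 0.32. The cause was not tested. Deviations of same-numbered combination and INK128 polysome arrays had correlations of 0.445, 0.214 and 0.087. For combination and DMSO polysome arrays they were 0.203, 0.296 and -0.035. The labels give no shared culture, so the block may only repeat a number. Polysome against total RNA, with 103 called, had 79 to 116 without 1 array. The low number of arrays and signals near the level limit bound what could be detected.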
